A study of Mus musculus with 9 samples.

Results

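The genes described here are 10 genes of the MHC class I pathway, taken as the rows of the deposited count table whose symbols were B2m, H2-K1, H2-D1, Tap1, Tap2, Tapbp, Psmb8, Psmb9, Psmb10 and Nlrc5. All 10 were found among 40879 gene symbols, and all 10 were among the 15351 genes with enough counts to be tested. They were measured in whole spinal cord of wild-type mice by 3′ end RNA sequencing, in which the count of a gene is a count of reads at the ends of its transcripts. The 9 libraries formed 3 groups of 3. The first group had experimental autoimmune encephalomyelitis (EAE), an autoimmune model of multiple sclerosis in which T cells attack central nervous system myelin, and received GV1001, a peptide derived from telomerase. The second had EAE and received vehicle, and the third was naive. The labels give no strain, sex, age, dose, day of collection or method of EAE induction. They also do not say whether the replicates were separate animals, so the p-values measure the spread between these samples, which may be technical.

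MHC class I molecules display peptides from inside the cell to CD8 T cells. Proteasomes cut cytosolic proteins into peptides, the TAP transporter carries the peptides into the endoplasmic reticulum, and a loading complex fits them into a class I heavy chain that is bound to beta-2 microglobulin. Interferons raise the pathway in many cell types and exchange the catalytic subunits of the proteasome for inducible ones, which gives the immunoproteasome. In healthy central nervous tissue, class I is known to be low in neurons and more readily raised in microglia, astrocytes and endothelium.

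Many of these genes lie together. In RefSeq's gene order on mouse chromosome 17, Psmb9, Tap1, Psmb8 and Tap2 were neighbours in that order, and Tapbp, H2-K1 and H2-D1 lay on the same chromosome. B2m lay on chromosome 2 and Psmb10 on chromosome 8. Promoter windows of 300 bases, from 250 bases before to 50 after the first transcribed base, were available in RefSeq's table for build GRCm38.p6 for 8 of the 10 genes, with none for Tap2 and Nlrc5. The 5 printed here, 5′ to 3′ on the gene's strand, are the windows of the class I chains, which form the displayed molecule, and of Psmb8 and Tap1, which differed most from naive in EAE vehicle cords among the genes with a window. Capitals mark matches on either strand to 3 motifs: an interferon-stimulated response element (GAAA, 2 bases of any kind, GAAA), a gamma-activated site (TTCNNNGAA) and a kappa B site (GGG, 2 bases of any kind, TT, 1 base of any kind, CC).
B2m (chr2:122147437-122147736, + strand): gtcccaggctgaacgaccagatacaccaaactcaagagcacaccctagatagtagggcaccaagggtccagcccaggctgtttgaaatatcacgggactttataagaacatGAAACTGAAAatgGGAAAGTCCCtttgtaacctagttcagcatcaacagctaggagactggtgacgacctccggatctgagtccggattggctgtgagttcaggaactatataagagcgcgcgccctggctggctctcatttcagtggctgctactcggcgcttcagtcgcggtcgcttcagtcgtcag
H2-K1 (chr17:34000284-34000583, - strand): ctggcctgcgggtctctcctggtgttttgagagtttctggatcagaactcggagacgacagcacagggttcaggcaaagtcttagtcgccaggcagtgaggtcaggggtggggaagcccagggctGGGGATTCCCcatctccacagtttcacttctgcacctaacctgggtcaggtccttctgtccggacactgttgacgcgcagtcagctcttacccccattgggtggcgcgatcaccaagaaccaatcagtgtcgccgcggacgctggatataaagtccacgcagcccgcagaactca
H2-D1 (chr17:35262844-35263143, + strand): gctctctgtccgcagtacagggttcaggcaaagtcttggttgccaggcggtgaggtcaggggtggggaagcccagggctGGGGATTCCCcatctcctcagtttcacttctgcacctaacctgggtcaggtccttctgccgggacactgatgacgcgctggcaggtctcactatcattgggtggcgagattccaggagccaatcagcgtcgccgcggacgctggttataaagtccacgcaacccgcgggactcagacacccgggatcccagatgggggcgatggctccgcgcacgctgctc
Tap1 (chr17:34187306-34187605, + strand): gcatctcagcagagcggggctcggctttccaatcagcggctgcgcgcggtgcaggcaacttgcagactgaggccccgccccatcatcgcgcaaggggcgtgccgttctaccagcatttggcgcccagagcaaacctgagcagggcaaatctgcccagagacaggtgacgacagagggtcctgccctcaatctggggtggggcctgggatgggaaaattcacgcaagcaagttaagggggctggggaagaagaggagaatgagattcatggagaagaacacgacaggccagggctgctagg
Psmb8 (chr17:34197945-34198244, + strand): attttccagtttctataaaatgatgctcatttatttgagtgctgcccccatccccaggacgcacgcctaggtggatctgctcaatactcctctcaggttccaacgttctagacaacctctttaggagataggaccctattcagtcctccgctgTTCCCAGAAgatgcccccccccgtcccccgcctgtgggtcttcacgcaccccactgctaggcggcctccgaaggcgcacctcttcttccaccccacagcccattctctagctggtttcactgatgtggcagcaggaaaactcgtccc

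The B2m window held a match to the interferon-stimulated response element that began at position -139 from the first transcribed base, next to a kappa B match on the opposite strand at position -126. H2-K1 and H2-D1 each held a kappa B match, at positions -125 and -171, within windows that shared an identical run of 47 bases. A second RefSeq start of H2-K1 shifts the window and puts the same match at position -111. Psmb8 held a gamma-activated site match at position -97, and the Tap1 window, which overlaps that of Psmb9 on the opposite strand, held no match to these 3 motifs. Of the 8 member windows, 1 held the response element letters as written above, as did 3.49% of all 27025 promoter windows. Other forms of that element were not searched, so a window without these letters may still hold one. The kappa B letters were in 3 of the 8 windows and in 4.71% of all windows, and the gamma-activated letters in 1 of 8 and 8.47%. The shorter TGACGC, the core of an X2 site of the kind found in class I promoters, was in the H2-K1 and H2-D1 windows and in 7.50% of all windows, and CCAAT was in 6 of 8 and 37.9%. These matches describe letters in the windows; binding was not measured.

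Library totals ranged from 5247246 to 6174870 counts, so that 3 counts, taken as the floor of detection, equalled 0.486 to 0.572 CPM (a count divided by its library's total and scaled). Libraries of 1 group differed widely in these genes. EAE vehicle replicate 1 had the highest level of all 9 libraries for 10 of the 10 genes, and EAE GV1001 replicate 2 the second highest for 10 of 10. Values are therefore given by library, and the main comparisons also without 1 of these libraries. Lists of cell markers were summed beside them. Neuron markers, such as Snap25 and Nefl, summed to 5532 to 6531 CPM with GV1001, 4502 to 6445 CPM with vehicle and 6528 to 6817 CPM in naive cords. Oligodendrocyte markers summed to 14273 to 15590, 12342 to 16731 and 17056 to 18863 CPM in the same groups, so both marker sets of the cord were abundant in every library, and both were lowest in vehicle replicate 1. In vehicle against naive the log2 fold change was negative for 8 of 8 neuron markers, with a median of -0.33, and for 6 of 6 oligodendrocyte markers, with a median of -0.28, and none passed at an adjusted p under 0.05. Summed skeletal muscle markers were 4157, 1095 and 388 CPM in the GV1001 libraries, 109.7, 435 and 18.8 CPM in the vehicle libraries and 23.3, 29.2 and 209.8 CPM in the naive libraries. Schwann cell markers summed to 2583 to 3525, 752 to 2653 and 1285 to 1767 CPM in the same groups. Muscle and Schwann cells belong to tissue outside the cord. In GV1001 against naive, 5 of the 6 Schwann cell markers had a positive log2 fold change and 1 a negative one. These markers may not be of Schwann cells alone, so their sum is not a measure of tissue outside the cord. GV1001 replicate 1, which had the most muscle RNA, was the EAE library with the lowest sum of the 10 genes, 579 CPM. GV1001 replicate 2, which had the next most muscle RNA, had the second highest sum of the 10 genes, 3303 CPM. The part of these tissues in the results was not tested.

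In EAE cords given vehicle, the level of 9 of the 10 genes was above that of every naive cord, where 12% of all tested genes were. The exception was Tap2. The 9 include Nlrc5, which passed the filter on low counts only through EAE libraries and is no added support. The difference from naive was widest for Nlrc5, Psmb8, Tap1 and Psmb9 and smallest for Psmb10 and Tap2. None of the 10 passed the edgeR quasi-likelihood test with Benjamini-Hochberg adjustment over all 15351 genes, at a threshold of 0.05. Of all tested genes, 0.0195% passed it in this comparison. In EAE cords given GV1001, each of the 10 genes averaged less than in vehicle cords and more than in naive cords, and the range over GV1001 libraries overlapped that over vehicle libraries for all 10, where 4.57% of all tested genes had GV1001 libraries below every vehicle library.

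B2m encodes beta-2 microglobulin, the light chain that every classical class I molecule needs. It was at 246, 1809.8 and 570.1 CPM in cords given GV1001, at 4513, 399.6 and 1006 CPM in cords given vehicle and at 229, 315 and 296 CPM in naive cords. Only GV1001 replicate 1 lay inside the naive range. The means were 875 ± 825 CPM with GV1001, 1973 ± 2221 CPM with vehicle and 279.9 ± 44.8 CPM in naive cords (SD, n = 3 each). In bulk tissue such as this, more cells that express a gene and more RNA of it in each cell cannot be told apart.

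H2-K1 and H2-D1 encode the K and D heavy chains, which hold the peptide. H2-K1 was at 66.3, 417 and 113 CPM with GV1001, at 1134, 112 and 285 CPM with vehicle and at 56.3, 59.0 and 60.6 CPM in naive cords. H2-D1 was at 97.1, 483 and 138 CPM with GV1001, at 1028, 129 and 339 CPM with vehicle and at 74.5, 90.5 and 81.0 CPM in naive cords. For both heavy chains all 6 EAE libraries lay above all 3 naive libraries, in GV1001 replicate 1 by a small margin. The chains are alike in sequence: within the last 400 bases of their GENCODE transcripts, 10.2% of the 50-base windows of H2-K1 and 10.1% of those of H2-D1 also occurred in another gene. With 75-base windows the shares were 2.10% and 0%, so reads of these genes may have been split or dropped to a small extent, and the read length is not given in the sources used here.

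Tap1 and Tap2 encode the paired subunits of the peptide transporter. Tap1 was at 5.29, 42.3 and 11.3 CPM with GV1001, at 111.5, 10.1 and 18.8 CPM with vehicle and at 3.39, 4.49 and 6.13 CPM in naive cords. Tap2 was at 13.0, 60.1 and 27.9 CPM with GV1001, at 101.8, 14.9 and 23.4 CPM with vehicle and at 17.5, 25.4 and 20.6 CPM in naive cords. The subunits differed in pattern. Tap1 was above every naive library in vehicle cords and Tap2 was above every naive library in vehicle replicate 1 alone of that group, with vehicle replicate 2 and GV1001 replicate 1 below every naive library. Tapbp encodes tapasin, which joins the transporter to the empty class I molecule. It was at 82.8, 249 and 120.0 CPM with GV1001, at 466, 94.7 and 149 CPM with vehicle and at 70.7, 91.3 and 79.4 CPM in naive cords, so that vehicle replicate 2 and the highest naive library were nearly level.

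Psmb8, Psmb9 and Psmb10 encode the inducible catalytic subunits, which take the places of the constitutive Psmb5, Psmb6 and Psmb7. Psmb8 was at 9.45, 83.0 and 19.1 CPM with GV1001, at 211, 23.1 and 46.7 CPM with vehicle and at 4.81, 8.46 and 7.22 CPM in naive cords. Psmb9 was at 10.8, 78.5 and 20.4 CPM with GV1001, at 168, 15.6 and 41.1 CPM with vehicle and at 5.52, 8.11 and 9.74 CPM in naive cords. In both genes the lowest EAE library, GV1001 replicate 1, stood just above the highest naive library. Psmb10 behaved otherwise: it was at 47.6, 70.5 and 46.6 CPM with GV1001, at 118, 47.1 and 47.4 CPM with vehicle and at 37.4, 39.9 and 41.0 CPM in naive cords. All 6 EAE libraries were above the naive range, and 4 of them lay between 46.6 and 47.6 CPM.

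Nlrc5 encodes the transactivator of class I genes, which works in the nucleus at their promoters. It had 4, 59 and 9 counts with GV1001, or 0.756, 10.4 and 1.46 CPM, and 159, 19 and 31 counts with vehicle, or 28.6, 3.62 and 5.40 CPM. The naive libraries held 5, 1 and 2 counts, or 0.891, 0.173 and 0.361 CPM, and those of replicates 2 and 3 are below the floor. Nlrc5 passed the filter on low counts only through the EAE libraries, 4 of which reached 1.78 CPM against 0 of the naive ones, so it had to differ and is no added support for the direction.

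**Figure D1:**
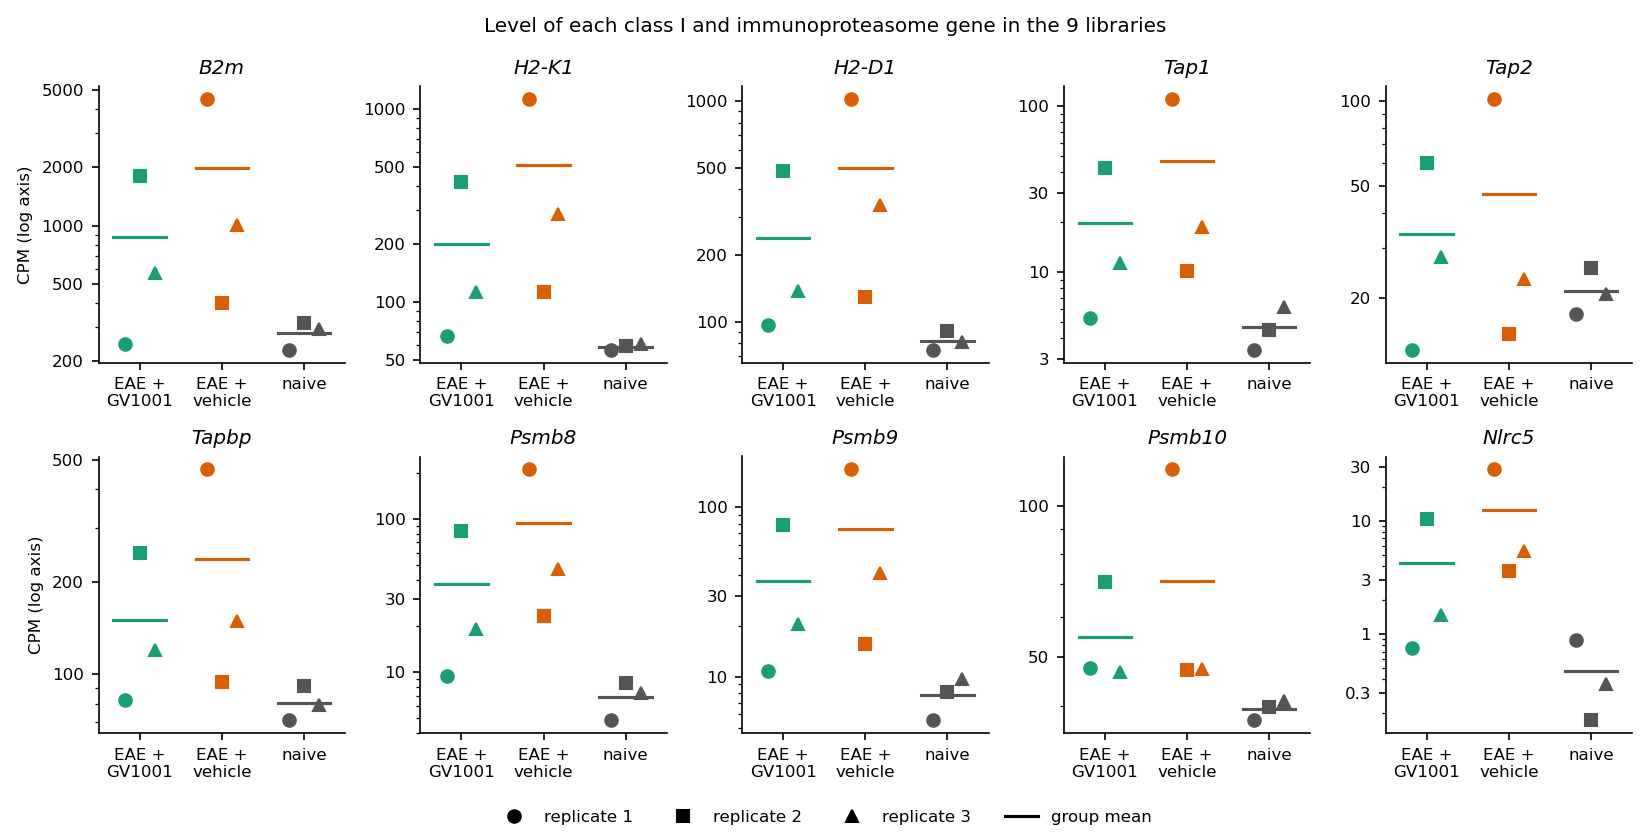
Level of each of the 10 genes in CPM on a log axis, with the EAE + GV1001, EAE + vehicle and naive libraries from left to right. Symbols mark the replicate and bars the group mean; EAE vehicle replicate 1 is the top point in every panel and EAE GV1001 replicate 2 the next.

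**Figure D2:**
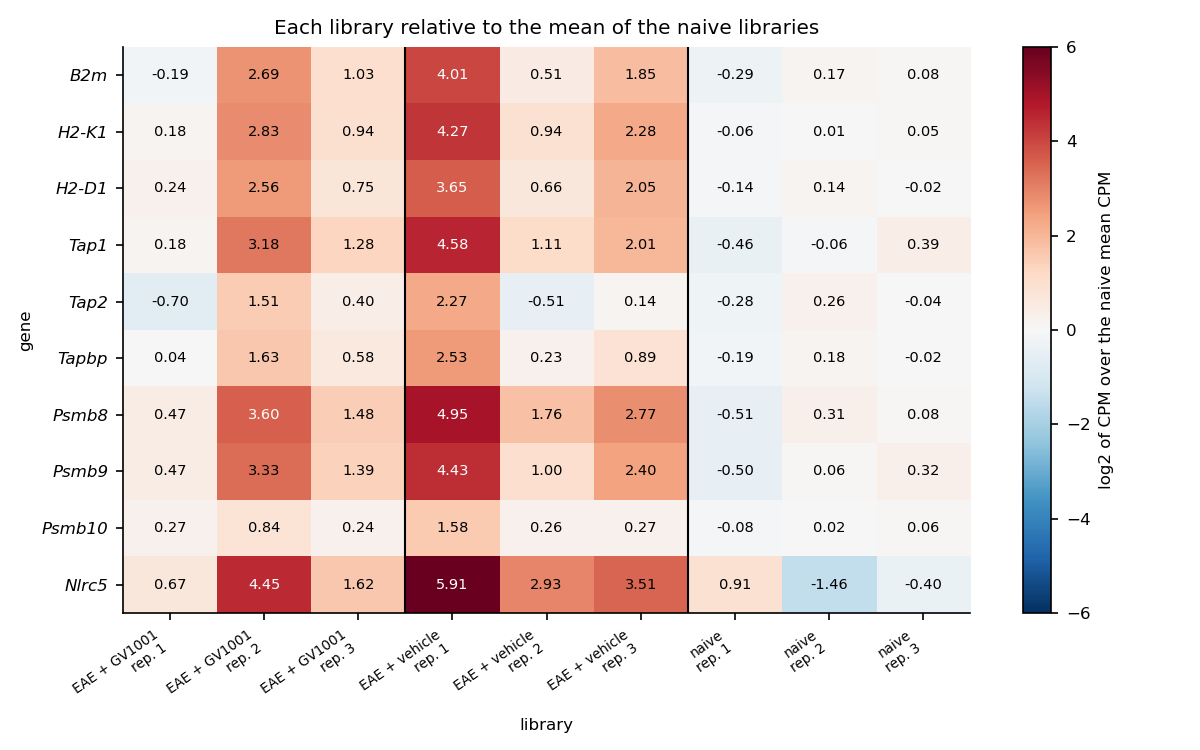
Log2 of each library's CPM over the mean of the naive libraries, for the 10 genes (rows) and 9 libraries (columns). Vehicle replicate 1 reaches 5.91 for Nlrc5 and 4.95 for Psmb8, while GV1001 replicate 1 stays between -0.70 and 0.67.

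Expressed over the naive mean, the median of the 10 genes was 1.16-fold, 6.78-fold and 1.98-fold in GV1001 replicates 1, 2 and 3, and 17.7-fold, 1.74-fold and 4.08-fold in vehicle replicates 1, 2 and 3. The order of the libraries was much the same from gene to gene. Vehicle replicate 3 was the third highest library for 8 of the 10 genes. GV1001 replicate 1 was above every naive library for 5 genes and below every naive library for Tap2, whereas GV1001 replicate 3 was above every naive library for 10 of 10. The share of all tested genes above the naive range in a single library is not given here, so these counts only describe the libraries. The ratio of the highest to the lowest EAE library was 37.8 for Nlrc5, 22.3 for Psmb8, 21.1 for Tap1, 18.3 for B2m and 17.1 for H2-K1. It was 7.81 for Tap2, 5.63 for Tapbp and 2.53 for Psmb10, the smallest of the 10.

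In EAE vehicle against naive, log2 fold changes were 2.82 ± 0.87 for B2m, 3.12 ± 0.84 for H2-K1 and 2.60 ± 0.74 for H2-D1 (± SE), with edgeR adjusted p = 0.111, 0.0885 and 0.0958. In the transport and loading genes they were 3.32 ± 1.02 for Tap1, 1.14 ± 0.69 for Tap2 and 1.55 ± 0.55 for Tapbp, with edgeR adjusted p = 0.111, 0.408 and 0.152. Among the inducible subunits they were 3.77 ± 0.99 for Psmb8, 3.26 ± 0.95 for Psmb9 and 0.83 ± 0.34 for Psmb10, with edgeR adjusted p = 0.0836, 0.1001 and 0.209. Nlrc5 differed by 4.66 ± 1.30, with edgeR adjusted p = 0.0898. All 10 were higher in vehicle cords, and no estimate met the threshold of 0.05. At an adjusted p under 0.1, edgeR called 4 of the 10 as higher, which were H2-K1, H2-D1, Psmb8 and Nlrc5, where 3.8% of all tested genes were called higher. At an unadjusted p under 0.05, 9 of 10 were higher, where 11.3% of all tested genes were, and the ranges of the groups were apart with vehicle above naive for 9 of 10, where 12% of all tested genes were. Nlrc5, which passed the filter on low counts only through EAE libraries, is in each of these counts and is no added support. The median log2 fold change was 2.97 over the 10 genes and -0.0047 over all tested genes.

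These calls depended on the method and on single libraries. DESeq2 called 5 of the 10 genes as higher, where it called 3.1% of all 26840 genes with a count higher. The 5 were Psmb8 (DESeq2 adjusted p = 0.00859), Nlrc5 (0.00959), H2-K1 (0.0234), Psmb9 (0.0255) and Tap1 (0.0324). With no filter on low counts edgeR also called 5, with H2-D1 in place of Tap1, where 1.67% of the same 26840 genes were called higher. The DESeq2 shares, here and below, and this share include many genes below the filter. They are not on the same base as shares of the tested genes. Without vehicle replicate 2, the vehicle library nearest to naive, edgeR called 8 of the 10, all but Tap2 and Psmb10, where 7.46% of genes were called higher. Nlrc5 is in each of these counts and, at 5, 1 and 2 naive counts, is no added support. Without vehicle replicate 1, none was called. The log2 fold changes were then 1.27 for B2m, 1.70 for H2-K1, 1.46 for H2-D1, 1.58 for Tap1, 2.30 for Psmb8, 1.82 for Psmb9 and 3.15 for Nlrc5. They were 0.55 for Tapbp, 0.21 for Psmb10 and -0.19 for Tap2, and the median over the 10 was 1.52.

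In EAE GV1001 against EAE vehicle, the comparison that asks what the peptide changed in diseased cords, the log2 fold change was negative for all 10 genes. It was -1.20 ± 0.82 for B2m, -1.39 ± 0.78 for H2-K1, -1.08 ± 0.69 for H2-D1, -1.28 ± 0.83 for Tap1 and -1.59 ± 0.84 for Nlrc5. It was -1.36 ± 0.81 for Psmb8 and -1.06 ± 0.79 for Psmb9, against -0.67 ± 0.53 for Tapbp, -0.49 ± 0.66 for Tap2 and -0.38 ± 0.33 for Psmb10 (± SE). Each difference was within 2 standard errors of 0. The edgeR adjusted p lay between 0.590 and 0.839 for the 10 genes, none was called, and 0% of all tested genes were called. At an unadjusted p under 0.05, edgeR found 0 of the 10 lower, where 4.51% of all tested genes were, and DESeq2 called 0 of the 10 at an adjusted p under 0.05, where it called 0.0484% of genes. The median over the 10 genes was -1.14.

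That direction rested on 1 library. Without vehicle replicate 1 the median was 0.29 and 9 of the 10 log2 fold changes were above 0, from 0.02 for H2-K1 to 0.84 for Tap2, with Nlrc5 at -0.09. Without GV1001 replicate 2 the median was -2.28, with Nlrc5 at -3.46 and Psmb8 at -2.71, and edgeR's smallest adjusted p among the 10 genes was 0.432. With 3 libraries a group and this spread, neither a decrease nor an increase of these genes under GV1001 was detectable.

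In EAE GV1001 against naive, all 10 log2 fold changes were positive, and they share the naive libraries with the vehicle comparison. Psmb8 was at 2.41 ± 1.03, Psmb9 at 2.20 ± 0.98, Tap1 at 2.04 ± 1.10 and H2-K1 at 1.73 ± 0.82, and Psmb10 was lowest at 0.45 ± 0.34 (± SE). The edgeR adjusted p lay between 0.659 and 0.884, none was called, and 0% of all tested genes were. At an unadjusted p under 0.05, 2 of the 10 were higher, Psmb8 and Psmb9, where 4.35% of all tested genes were. The ranges were apart for H2-K1, H2-D1, Psmb8, Psmb9 and Psmb10, which is 5 of 10, where 8.84% of all tested genes were apart in this direction. The median was 1.67, and without GV1001 replicate 2 it was 0.56.

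With both EAE groups set against naive, the median log2 fold change was 2.32 and edgeR called none of the 10, where 0.00651% of tested genes were called. At an unadjusted p under 0.05, 8 of the 10 were higher, where 8.81% of tested genes were, and DESeq2 called Psmb8 and Nlrc5, where it called 1.73% of genes higher. Nlrc5 is in both counts and is no added support. For 5 of the 10 all 6 EAE libraries were above all 3 naive ones, where 4.55% of tested genes were. The median was 1.60 without vehicle replicate 1 and 1.76 without GV1001 replicate 2, and edgeR called none in either case.

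**Figure D3:**
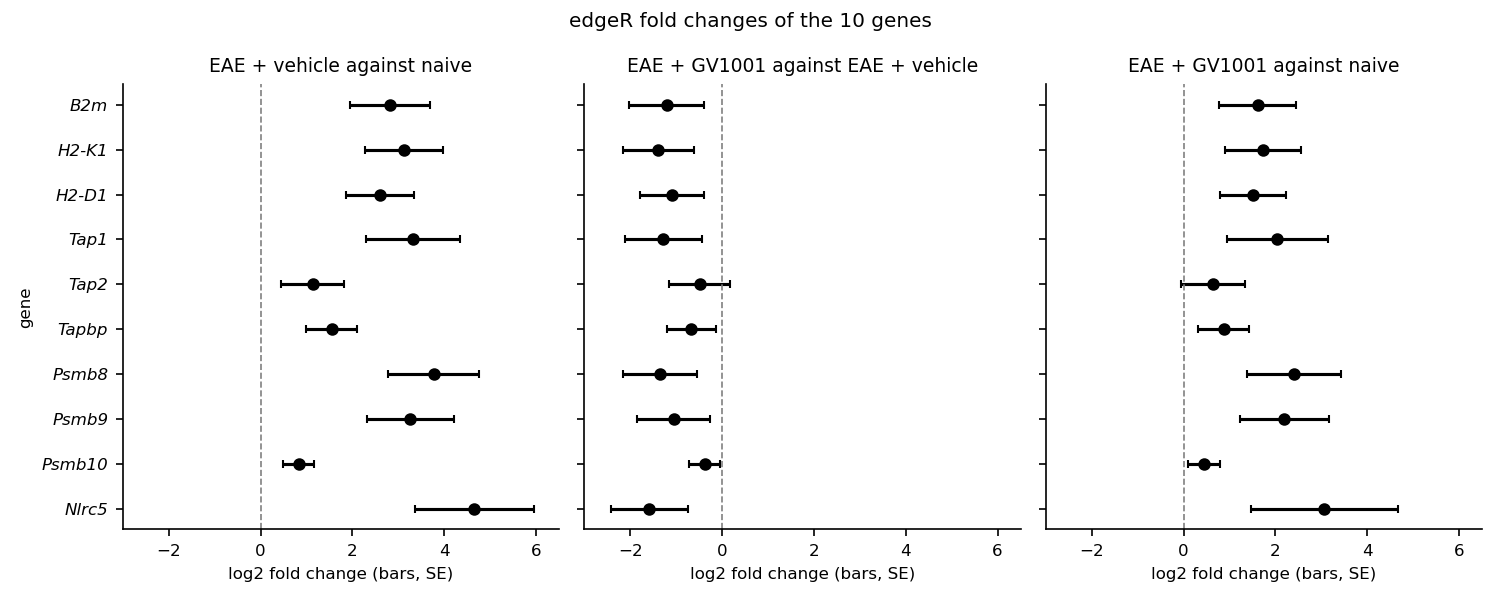
Log2 fold change of each of the 10 genes in edgeR (points) with its standard error (bars), for EAE + vehicle against naive, EAE + GV1001 against EAE + vehicle and EAE + GV1001 against naive. Nlrc5, at 4.66, and Psmb8, at 3.77, are farthest from 0 in the left panel, and the middle panel lies below 0 in full, from -1.59 to -0.38.

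The inducible subunits were set against the constitutive subunits they replace as ratios of counts within a library, so that library size has no part in the value. The counts are of transcript ends, which gives the ratio of the transcripts and says nothing of assembled proteasomes. The ratio of Psmb8 to Psmb5 was 0.287, 3.06 and 0.674 with GV1001, 9.87, 0.812 and 1.76 with vehicle and 0.176, 0.350 and 0.294 in naive cords. The ratio of Psmb9 to Psmb6 was 0.0784, 0.530 and 0.148 with GV1001, 1.15, 0.103 and 0.276 with vehicle and 0.0419, 0.0518 and 0.0648 in naive cords. Every vehicle library was thus above every naive library in both ratios, and vehicle replicate 1 was the only library with more Psmb9 than Psmb6. The ratio of Psmb10 to Psmb7 was 0.599, 1.16 and 0.699 with GV1001, 1.72, 0.652 and 0.682 with vehicle and 0.487, 0.616 and 0.596 in naive cords, a narrower span.

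On the log2 scale with 0.5 added to each count, the ratio of Psmb8 to Psmb5 was higher by 3.18 in vehicle than in naive cords, that of Psmb9 to Psmb6 by 2.61 and that of Psmb10 to Psmb7 by 0.70. Without vehicle replicate 1 these differences were 2.17, 1.69 and 0.24. Each had p = 0.1 in a two-sided exact permutation test, the smallest that 3 against 3 libraries allow, and 0.171 after adjustment over the 12 ratio tests made. With both EAE groups against naive, the exact permutation p was 0.0714 for Psmb8 to Psmb5, 0.0238 for Psmb9 to Psmb6, the smallest that 6 against 3 allow, and 0.0476 for Psmb10 to Psmb7, and 0.171 after adjustment for each. The differences without vehicle replicate 1 were then 1.87, 1.76 and 0.39. Between GV1001 and vehicle cords the log2 differences were -1.52, -0.80 and -0.22, with exact permutation p = 0.4, 0.6 and 0.7. The constitutive subunits themselves differed little: Psmb5, Psmb6 and Psmb7 differed by -0.03 ± 0.15, -0.01 ± 0.09 and -0.03 ± 0.12 (log2, ± SE) between vehicle and naive cords.

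The ratio of Tap1 to Tap2 was chosen after its values were seen and has no test. It was 0.406, 0.704 and 0.407 with GV1001, 1.10, 0.679 and 0.806 with vehicle and 0.194, 0.177 and 0.298 in naive cords. All 6 EAE libraries were above all 3 naive ones, GV1001 replicate 1 included, in which both genes were close to or below the naive level. The ratio of H2-K1 to H2-D1 was 0.683, 0.863 and 0.820 with GV1001, 1.10, 0.869 and 0.842 with vehicle and 0.756, 0.653 and 0.748 in naive cords, also with no test, and here the GV1001 and naive ranges overlapped.

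**Figure D4:**
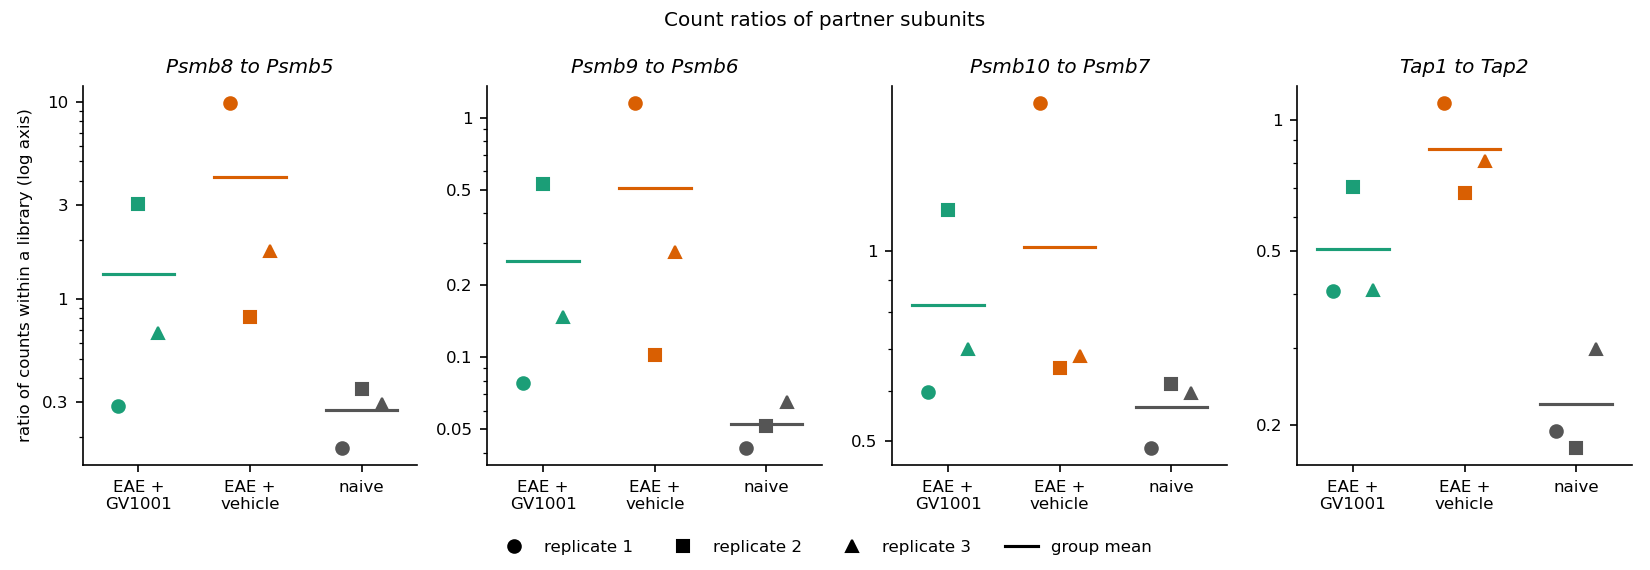
Ratio of counts within each library, on log axes, of Psmb8 to Psmb5, Psmb9 to Psmb6, Psmb10 to Psmb7 and Tap1 to Tap2, with EAE + GV1001, EAE + vehicle and naive libraries from left to right and bars at the group means. The Tap1 to Tap2 ratio is 0.406 or more in the EAE libraries and 0.298 or less in the naive libraries.

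Other genes of the pathway were read from lists by role, and for each list the 2 most abundant tested genes and those with the smallest p in vehicle against naive are named. No list held a gene called by edgeR at an adjusted p under 0.05. The 3 constitutive catalytic subunits had a median log2 fold change of -0.03 in vehicle against naive. The 11 other subunits of the 20S core had a median of 0.11, and 1 of 11, Psma1 at 0.35 ± 0.12, was higher at an unadjusted p under 0.05, where 11.3% of all tested genes were. Psmb4 and Psma7, the most abundant, differed by 0.24 ± 0.11 and 0.13 ± 0.09. The 17 subunits of the 19S cap, which unfolds ubiquitinated proteins for the core, had a median of -0.11, with 15 of 17 below 0. The cap subunits Psmc1, Psmd4 and Psmd3, at -0.43 ± 0.13, -0.44 ± 0.18 and -0.41 ± 0.17, were the 3 of 17 lower at an unadjusted p under 0.05, where 8.07% of all tested genes were lower. Psmd1, which with Psmc1 was the most abundant of the cap, was at -0.13 ± 0.080.

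Among 9 proteasome activators and assembly factors the median was 0.15. Psme1 and Psme2 encode the interferon-inducible 11S activator that caps the immunoproteasome. Psme1 was at 35.9, 85.2 and 44.0 CPM with GV1001, 161, 44.4 and 55.1 CPM with vehicle and 24.8, 29.5 and 30.0 CPM in naive cords, and its log2 fold change in vehicle against naive was 1.62 ± 0.48 (edgeR adjusted p = 0.105). Psme2 was at 18.3, 28.7 and 17.8 CPM with GV1001, 57.1, 25.2 and 28.4 CPM with vehicle and 12.5, 9.32 and 12.8 CPM in naive cords, with 1.66 ± 0.35 (edgeR adjusted p = 0.0703). All 6 EAE libraries were above the naive ones in both genes. Psme3, the nuclear activator of the same family, had a negative log2 fold change, -0.35 ± 0.11 (edgeR adjusted p = 0.118), and Pomp, the assembly factor and most abundant gene of the list, was at 0.15 ± 0.12.

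Of 17 other class I chains, 9 were tested, all 9 had a positive log2 fold change in vehicle against naive, and the median log2 fold change was 0.96. H2-M3, which presents formylated peptides, was at 1.43 ± 0.40 (edgeR adjusted p = 0.092) and H2-T22, a ligand of gamma delta T cells, at 1.24 ± 0.41 (0.129). Fcgrt, the neonatal Fc receptor and the most abundant of the list, was at 0.40 ± 0.23. H2-M2, a nonclassical chain, had 0, 34 and 1 counts with GV1001, 71, 1 and 23 counts with vehicle and 0 in each naive library. Summed over the group and set against 3 counts over the naive group, the vehicle counts were at least 32.4-fold higher. Replicate 1 held 71 of these 95 counts, and the 1 count of replicate 2 is below the floor. The bound is thus of the pooled counts and does not hold for each vehicle cord. The median of the list is 0.96 with H2-M2 at that bound. H2-M2 and Mr1 were below the filter on low counts in every naive library and passed it only through EAE libraries, so their part in this count is no support for the direction. The 8 that were not tested include H2-Q6, H2-Q7 and H2-T23, and chains of this family share sequence, so that reads between them may be split or dropped.

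Of the 9 loading and trimming genes, which include the chaperones Canx and Hspa5, the median was 0.18. Erap1, the aminopeptidase that trims peptides in the endoplasmic reticulum, was at 1.33 ± 0.45 (edgeR adjusted p = 0.131), Sec61b, of the translocation channel, at 0.69 ± 0.20 (0.102) and Hspa5 at 0.30 ± 0.13 (0.246). These were the 3 of 9 higher at an unadjusted p under 0.05, where 11.3% of all tested genes were. Canx, the most abundant, was at 0.07 ± 0.08.

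The 17 transcriptional regulators had a median of 0.70 in vehicle against naive, 8 of 17 were higher at an unadjusted p under 0.05, where 11.3% of all tested genes were, and 3 at an adjusted p under 0.1, where 3.8% were. Those 3 were Rela, a kappa B subunit, at 0.70 ± 0.14 (edgeR adjusted p = 0.0674), Irf8, a myeloid interferon regulatory factor, at 3.37 ± 0.91 (0.0885), and Ciita, the class II transactivator. Ciita had 5, 67 and 18 counts with GV1001, 173, 9 and 23 with vehicle and 0, 0 and 2 in naive cords. That is a ratio of 105 between vehicle and naive cords, with an exact conditional 95% interval of 28.7 to 872 that covers counting error only, and edgeR adjusted p = 0.0795. Like Nlrc5, Ciita passed the filter on low counts only through EAE libraries, 4 of 6, so it had to differ and adds no support to the count of 8 or the count of 3. Creb1 and Nfyb, which bind the X2 and Y boxes and were the most abundant, were at 0.20 ± 0.10 and -0.17 ± 0.11.

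Of 12 interferon ligands, receptors and feedback genes, 10 were tested and all 10 had a positive log2 fold change, with a median of 0.81. Socs3, a feedback inhibitor of cytokine receptors, was at 3.74 ± 0.82 (edgeR adjusted p = 0.0703), Usp18, which restrains type I interferon signalling, at 2.78 ± 0.88 (0.118) and Ifngr1, a chain of the interferon gamma receptor, at 1.23 ± 0.43 (0.147). Jak1 and Ifnar2, the most abundant, were at 0.03 ± 0.13 and 0.85 ± 0.31. Usp18 and the feedback inhibitor Socs1 passed the filter only through EAE libraries, and their direction is no added support. The ligands were near or at 0: Ifng had 10 counts in vehicle replicate 1, 1 in GV1001 replicate 2 and 0 elsewhere, and Ifnb1 had 0 in all 9 libraries. Vehicle replicate 1, the library with the most Ifng counts, was also the one with the highest level of each of the 10 genes. The same library was highest in the summed microglia and macrophage, pan leukocyte and T cell markers. The part of Ifng in these levels was not tested.

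Of 15 genes of class I receptors, related inhibitory receptors and effectors of cytotoxic cells, 2 had enough counts to be tested, both of them inhibitory receptors of myeloid cells. Pirb was at 4.74 ± 1.06 (edgeR adjusted p = 0.0703), with 22, 66 and 27 counts with GV1001, 191, 17 and 67 with vehicle and 1, 6 and 3 in naive cords. Lilrb4a was at 5.77 ± 1.25 (0.0691), with 19, 42 and 17 counts with GV1001, 240, 7 and 98 with vehicle and 2, 4 and 0 in naive cords. Both genes passed the filter on low counts through EAE libraries alone, so they had to differ, and their fold changes and p describe the counts and support no direction. Cd8a, the coreceptor for class I on cytotoxic T cells, had 16 counts in vehicle replicate 1, 1 in GV1001 replicate 2 and 0 elsewhere, and Prf1, encoding perforin, had 0 in all 9 libraries.

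**Figure D5:**
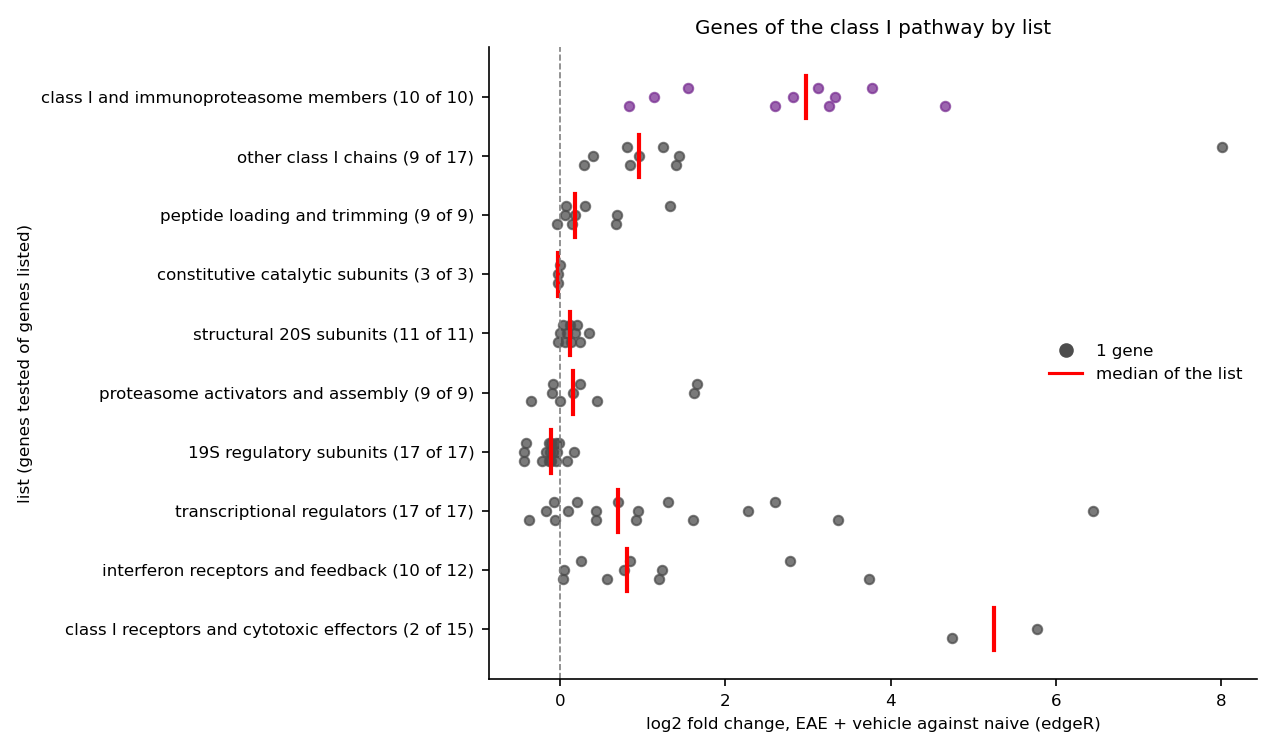
Log2 fold change in edgeR of each tested gene (points) in EAE + vehicle against naive, by list, with red bars at the list medians and the 10 genes in purple. The medians are 2.97 for the 10 genes, -0.03 for the constitutive catalytic subunits and -0.11 for the 19S subunits; the point near 8 is H2-M2, which had no count in naive cords, so that its fitted value depends on the added prior.

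Markers of immune cells were summed beside the 10 genes. Summed CPM of 10 microglia and macrophage markers was 330.2, 1207 and 500.4 with GV1001, 3301, 564 and 1423 with vehicle and 281, 320.4 and 325 in naive cords. Summed CPM of the 10 class I and immunoproteasome genes was 579, 3303 and 1067 with GV1001, 7879, 850.2 and 1963 with vehicle and 500.3, 642 and 602 in naive cords. Without B2m, the sum of the other genes was 333, 1493 and 497 with GV1001, 3366, 451 and 956 with vehicle and 271, 327 and 306 in naive cords. Vehicle replicate 1 was highest in each sum. The order of libraries was not the same throughout. Vehicle replicate 3 was above GV1001 replicate 2 in the marker sum and below it in the sum of the 10 genes. The ratio of the sum of the 10 genes to the marker sum was 1.75, 2.74 and 2.13 with GV1001, 2.39, 1.51 and 1.38 with vehicle and 1.78, 2.00 and 1.85 in naive cords. It spanned a smaller range than either of these sums. In vehicle against naive, the log2 fold change was positive for 10 of the 10 microglia and macrophage markers, with a median of 2.29, and for 5 of 5 pan leukocyte markers, with a median of 3.27. edgeR called 0 of 10 and 0 of 5 at an adjusted p under 0.05, where 0.0195% of all tested genes were called. At an adjusted p under 0.1, where 3.8% of all tested genes were called higher, it called 9 of 10 and 4 of 5 of these markers. Their summed levels were 84.3 to 389, 163 to 1093 and 61.8 to 73.9 CPM for the pan leukocyte markers with GV1001, with vehicle and in naive cords. The 8 T cell markers summed to 4.16 to 23.3 CPM with GV1001, 6.29 to 70.0 with vehicle and 2.85 to 4.51 in naive cords, where Cd3d, Cd3g, Cd4 and Cd8a were at 0. Of 6 astrocyte markers, 5 had a positive log2 fold change in vehicle against naive, with a median of 0.44. At an edgeR adjusted p under 0.1, 2 of the 6 were called higher, where 3.8% of all tested genes were. Of 6 endothelium markers, 4 were positive, with a median of 0.05, and 0 were called at that threshold. The part of any of these cells in the levels of the 10 genes was not tested.

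Genes whose profile over the 9 libraries was among the most like the mean profile of the 10 were Irf1, Spi1, Ncf1, Grn, H2-DMa, Tgfbi, Pld4, Cytip and Dock2. Likeness was the root-mean-square difference of centred log2 CPM, among genes at a mean of 5 CPM or more, and it ran from 0.203 for Irf1 to 0.276 for Dock2. Irf1, the interferon regulatory factor that binds class I promoters, was at 14.0, 85.2 and 29.0 CPM with GV1001, 194, 37.0 and 43.4 CPM with vehicle and 11.9, 16.9 and 16.1 CPM in naive cords. Spi1 and Ncf1 are myeloid genes, a transcription factor and a subunit of the phagocyte oxidase. By the same measure H2-D1, at 0.143, and B2m, at 0.198, were nearer to the mean profile than any of the other 11823 genes considered, which they helped to define, whereas 498 other genes were nearer than Psmb10 and 366 than Nlrc5.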

How the data were processed

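Total RNA of 9 spinal cord samples was extracted with TRIzol or a Maxwell RSC miRNA kit, per the labels' protocols, which do not say which sample had which. A QuantSeq 3′ mRNA-Seq V2 FWD kit was used for the libraries. The authors deposited unnormalised counts for each gene symbol, not scaled by gene length. The build GRCm39 and the tools STAR, HTSeq and FastQC are named per the submitters' processing notes; their versions, the annotation, the strand setting and any use of molecular identifiers are not given in the sources used here. The table of all samples was used, whose counts equal those in each of the 9 per-library files.

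Groups were taken from the sample titles. CPM here is the count over the library total. Genes were kept by filterByExpr with a minimum count of 10, normalised by TMM and tested in all 9 libraries with 1 coefficient per group by edgeR 4.0.16 (glmQLFit, glmQLFTest), with Benjamini-Hochberg adjustment over 15351 genes and a threshold of 0.05. The standard error is the absolute log2 fold change over the square root of F. DESeq2 1.42.0 and limma-voom (limma 3.58.1) in R 4.3.3 were alternatives, as were other normalisations, no filter, only the groups compared, a replicate block and leaving out each library. DESeq2 covered the 26840 genes with a count. Ratios were tested by exact permutation with scipy 1.17.1, and figures drawn with matplotlib 3.10.9. The edgeR script was tested on simulated data.

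Replicate numbers were not treated as pairs, because the labels do not say what they mark. Of 9 same-numbered pairs of libraries, 2 had deviations from their group means that correlated above 0.1. Pairs with unlike numbers did so too, with r = 0.556 for GV1001 replicate 2 and vehicle replicate 1. With 3 libraries a group, this count cannot tell paired from unpaired replicates.

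The 10 genes, the lists of other genes and the motifs were chosen with earlier results of these data known. All 10 genes are given; of each other pathway list, the 2 most abundant tested genes by mean CPM and the 1 to 3 with the smallest p in EAE vehicle against naive; and the 10 most like profiles, without predicted genes, of which 1 is not reported here. Genes named beyond these were chosen after their values were seen. Promoters and gene order are RefSeq's, on GRCm38.p6; no coordinates of the files' build are given. Intervals and floors cover counting error only.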

Additional observations from a re-analysis of the deposited data

How the results depend on the processing

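For EAE vehicle against naive, the count of the 10 genes called by edgeR was 0 under the other normalisations, the older form of the fit, only the groups compared, limma-voom and limma-voom with group quality weights. It was 5 with DESeq2, 5 with no filter on low counts, 4 at a threshold of 0.1, and 0 to 8 with 1 library left out, 8 being without vehicle replicate 2. With both EAE groups against naive it was 0 throughout except 2 with DESeq2. In the other comparisons it was 0 under every setting. With the replicate block, 0 were called in every comparison, and the median log2 fold change was 2.79 in vehicle against naive, -1.03 in GV1001 against vehicle and 1.61 in GV1001 against naive; the block changed no call of these genes.

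The medians kept their direction except with 1 library left out: in GV1001 against vehicle the median ran from -2.28 to 0.29, the log2 ratio of Psmb9 to Psmb6 from -1.62 to 0.12 and that of Psmb10 to Psmb7 from -0.50 to 0.24. Single genes there ran from -2.29 to 0.34 for B2m, -2.53 to 0.025 for H2-K1, -2.10 to 0.057 for H2-D1, -2.49 to 0.46 for Tap1, -1.19 to 0.84 for Tap2, -1.23 to 0.33 for Tapbp, -2.71 to 0.11 for Psmb8, -2.26 to 0.38 for Psmb9 and -0.62 to 0.24 for Psmb10, the highest value being without vehicle replicate 1 in each. Tap2 ran from -0.19 to 1.56 in vehicle against naive, lowest without vehicle replicate 1, and from -0.057 to 1.02 in GV1001 against naive, lowest without GV1001 replicate 2. The cause was not tested.

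Over all genes, vehicle against naive gave 3 calls in edgeR, 1104 in DESeq2, 543 with no filter, 53 with quality weights, 20 with library totals only, 2 with only the groups compared and 0 with limma-voom or the replicate block. With 1 library left out it gave 0 to 1652, the most without vehicle replicate 2. In GV1001 against naive and both EAE groups against naive, edgeR gave 0 and 1 calls and DESeq2 45 and 569, and in GV1001 against vehicle 0 and 13. When Nlrc5 was fitted in the GV1001 and naive libraries alone it did not pass the filter and has no value there.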
